A study of Mus musculus with 12 samples.

Results

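The genes described here are those whose symbols name them as proteins of the cytosolic or the mitochondrial ribosome, read in mouse liver. They were taken by symbol, as Rpl or Rps plus a digit, Rplp, Rpsa, and Mrpl or Mrps plus a digit, without the Rps6k kinases and without pseudogenes whose symbol ends in -ps. Rps4l, which RefSeq annotates as a transcribed pseudogene, has no such ending and was kept. Rps19bp1, which is named for binding Rps19, and Mrps36, described below, were also kept, though neither is a ribosomal protein. Of 173 such genes in RefSeq, 166 had a probe on the array, of 21613 named genes in all, and 163 were measured well enough to be tested, of 13901 tested genes. The 163 comprised 85 cytosolic genes (35 Rps and 50 Rpl) and 78 mitochondrial genes (29 Mrps and 49 Mrpl). The other 3, the tissue-restricted paralogs Rpl10l, Rpl3l and Rpl39l, were not well above background on both arrays of any group.

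Male C57BL/6NJcl mice received CDAHFD, a choline-deficient, L-amino acid-defined feed with 60 kcal% fat and 0.1% methionine that the submitters used to induce nonalcoholic steatohepatitis (NASH), or CE-2 chow as the control diet. Livers were taken after 1, 2 and 6 weeks, at 7, 8 and 12 weeks of age, and total RNA was hybridised to 12 one-colour arrays, 2 per diet and week. The feeds differ in several components at once, which cannot be told apart. The labelled tissue matched its markers: albumin (Alb) had a level of at least 5.05 on every array. Nothing in the labels says whether the 2 arrays of a group came from separate animals, so the p-values reflect how far 2 arrays of a group lie apart, and that distance may be technical. A level is given as log2 signal relative to the array's 75th percentile, and a difference as log2 CDAHFD minus control relative to the median difference of all genes tested, with its standard error. Genes were called at an adjusted p under 0.05 in limma, a linear model fitted to all 12 arrays, on the difference before that median was subtracted.

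Cytosolic ribosomes translate the mRNAs of the nucleus, and the transcripts of their proteins begin with a run of pyrimidines (the 5′ TOP tract) whose translation is controlled by TOR signalling. Mitochondrial ribosomes translate the few mRNAs of mitochondrial DNA, all of which encode subunits of the respiratory chain and ATP synthase, although their own proteins are encoded in the nucleus and imported. In liver, cytosolic ribosomes make the plasma proteins that hepatocytes secrete, and the respiratory chain that mitochondrial ribosomes help to build takes up the electrons released when fatty acids are oxidised.

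The start regions of both sets are shown for 6 genes that the results turn on, since the sets had like shares of some promoter motifs and differed in others. Each line gives 60 bases before and 20 after the first start that RefSeq lists for the gene (build GRCm38.p6), in lower case, with CTTTC on the sense strand near the start and CCGGAAG on either strand in capitals. Rps19 and Mrps14 have neither in the window shown. The windows lie at chr2:180257319-180257398 (plus strand) for Rps21, chr9:64173327-64173406 (plus strand) for Rpl4, chr2:26910747-26910826 (plus strand) for Rpl7a, chr7:24884532-24884611 (plus strand) for Rps19, chr11:58171604-58171683 (plus strand) for Mrpl22 and chr1:160195155-160195234 (plus strand) for Mrps14.
Rps21: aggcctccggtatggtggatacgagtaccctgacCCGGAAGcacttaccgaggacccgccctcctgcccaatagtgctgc
Rpl4: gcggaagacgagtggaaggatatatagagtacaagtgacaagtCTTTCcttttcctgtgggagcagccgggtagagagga
Rpl7a: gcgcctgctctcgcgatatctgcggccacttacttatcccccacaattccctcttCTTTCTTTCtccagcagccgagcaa
Rps19: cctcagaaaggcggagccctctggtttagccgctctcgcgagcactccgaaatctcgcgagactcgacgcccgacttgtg
Mrpl22: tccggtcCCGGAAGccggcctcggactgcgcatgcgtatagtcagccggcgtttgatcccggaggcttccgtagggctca
Mrps14: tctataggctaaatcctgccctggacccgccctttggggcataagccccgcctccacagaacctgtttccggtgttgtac

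Promoter entries of 300 bases, from 250 before to 50 after a start, were listed for 64 tested cytosolic genes (75 starts) and 69 mitochondrial genes (75 starts). CCGGAAG, the core that ETS-family factors bind, was present on either strand in 33.3% of cytosolic and 34.7% of mitochondrial starts, against 15.6% of the 14053 starts of all genes tested. CTTTC within 30 bases of the start on the sense strand was present in 30.7% of cytosolic starts, and in 8.0% of mitochondrial starts and 6.7% of all. AAGATGG, part of the site of YY1, searched on both strands, was in 16.0% of cytosolic and 17.3% of mitochondrial starts, against 6.65% of all. GCATGCGC, the core of NRF1 sites, searched on both strands, was in 4.0% of cytosolic and 10.7% of mitochondrial starts, against 4.59% of all. No other motif was searched, CCGGAAG and AAGATGG can share the letters AAG, and a match describes letters and not a bound site.

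Mitochondrial ribosomal protein genes had a median below 0 in CDAHFD livers at every week, with the 75th percentile, quantile normalization, cyclic loess and normexp. The other 2 of the 6 settings of scaling and background correction, median centring and the percentile over all probes, shift all genes of an array alike, so by construction they leave a median taken relative to all genes nearly as it was and are no further check of it. Averaged over weeks, 47 of 78 fell and 3 rose, with a median difference of -0.32, where 25.6% of all genes tested fell and 35.6% rose. Bright genes fell more often: deciles 8, 9 and 10 of mean signal, 10 being the brightest, held 17, 24 and 20 of the 78. In these deciles 28%, 39.4% and 63% of all genes fell, so 25.6% understates the share for genes as bright as most of the set. In 25 of the 78, all 6 CDAHFD arrays lay below all 6 control arrays, a pattern found in 11.0% of all genes, and in 0 of the 78 did they lie above, a pattern found in 21.0% of all genes. Cytosolic ribosomal protein genes did not have a fixed direction: 44 of 85 fell and 5 rose in the average, with a median of -0.26, but with quantile normalization 50 rose and 7 fell, with a median of 0.18, and with cyclic loess 46 rose and 7 fell, with a median of 0.07. Of all genes called in the average, 58.2% were higher with the 75th percentile, 52.6% with quantile normalization and 61.1% with cyclic loess. All CDAHFD arrays lay below all control arrays in 6 of the 85 and above them in 1.

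The plot of set medians by array shows this pattern on each of the 12 arrays. The cytosolic median, relative to all genes, was -0.16 and -0.02 in CDAHFD livers at 1 week, against 0.39 and 0.35 in their controls. It was -0.20 and -0.24 in CDAHFD livers at 2 weeks, against 0.13 and -0.05 in controls, and -0.075 and -0.16 in CDAHFD livers at 6 weeks, against -0.001 and -0.03 in controls. The CDAHFD and control arrays did not overlap at any week, and the gap was widest at 1 week, where the controls stood highest. The mitochondrial median was -0.18 and -0.125 in CDAHFD livers at 1 week, against 0.31 and 0.26 in controls. It was -0.15 and -0.22 in CDAHFD livers at 2 weeks, against 0.11 and 0.085 in controls, and -0.19 and -0.17 in CDAHFD livers at 6 weeks, against 0.14 and 0.13 in controls. All 6 CDAHFD arrays thus lay below all 6 control arrays for the mitochondrial set, and the pooled SD between replicate arrays was 0.03 for the mitochondrial and 0.08 for the cytosolic median. Single genes spread unevenly: over all genes that SD was 0.85 in the 1-week controls and 0.29 to 0.49 in the other groups. Over members it was 0.78 in the 1-week controls, 0.67 in the 2-week controls and 0.12 to 0.225 elsewhere.

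**Figure D1:**
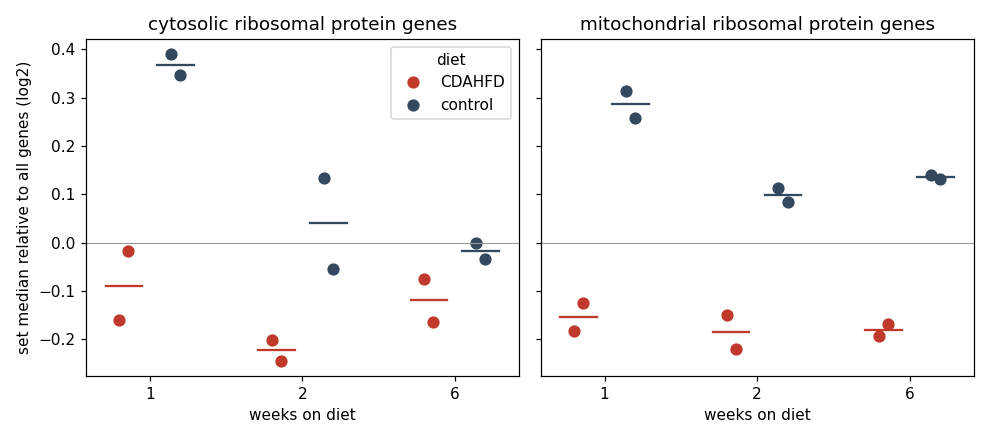
Median level of the 85 cytosolic (left) and 78 mitochondrial (right) ribosomal protein genes on each array, after each gene's mean over 12 arrays and the same median over all genes were subtracted (y axis, log2; arrays scaled to the 75th percentile), by week on diet. Points are arrays, CDAHFD left of control, and lines are means of 2; the 1-week controls stand highest in both panels, and the cytosolic order of the diets turns round with quantile normalization, where the cytosolic median difference was 0.11, 0.17 and 0.25 at 1, 2 and 6 weeks.

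The cytosolic genes are bright, and the diet difference of all genes ran with brightness on these arrays. Of the 85 cytosolic genes, 77 were in decile 10, the brightest by mean signal, of all genes tested, and of the 78 mitochondrial genes 20 were. The median difference of all genes in that decile was -0.51 at 1 week, -0.41 at 2 weeks and -0.31 at 6 weeks. The cytosolic genes in it had medians of -0.49, -0.26 and -0.02 at 1, 2 and 6 weeks, so they lay near other bright genes at 1 week and above them at 6 weeks. The 24 mitochondrial genes of decile 9 had medians of -0.41, -0.26 and -0.24 at 1, 2 and 6 weeks, against -0.21, -0.17 and -0.16 for all genes of that decile. The 20 mitochondrial genes of decile 10 went the other way relative to genes of their brightness, with medians of -0.49, -0.24 and -0.26 at 1, 2 and 6 weeks, against -0.51, -0.41 and -0.31 for all its genes. The 8 mitochondrial genes of decile 7 had a median of -0.31 at 6 weeks, against -0.04 for all its genes, and the 17 of decile 8 had -0.22, against -0.08. Whether the trend with brightness comes from the livers or from the arrays was not tested.

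**Figure D2:**
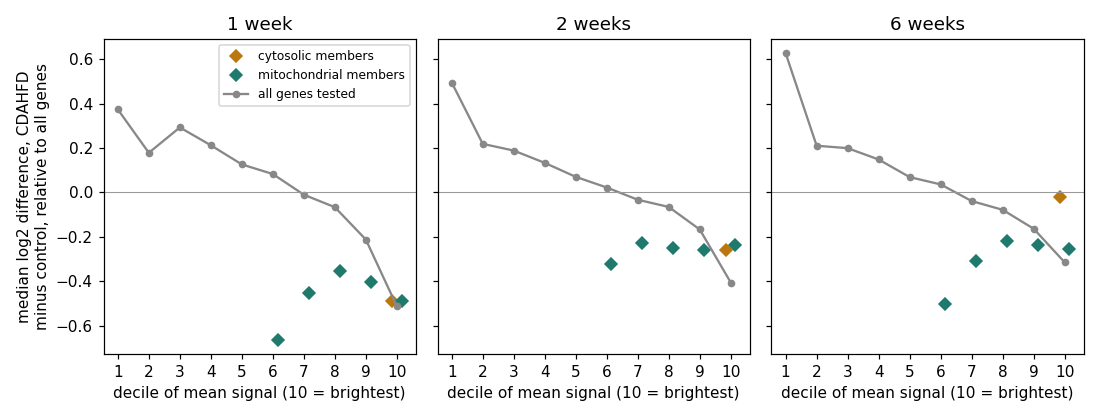
Median log2 difference, CDAHFD minus control relative to all genes (y axis), by decile of mean signal (x axis, 10 is brightest), for cytosolic and mitochondrial ribosomal protein genes (diamonds, deciles with at least 5 members) and for all genes tested (grey line), with arrays scaled to the 75th percentile. The mitochondrial diamonds lie below the grey line in deciles 6 to 9 at each week and above it in decile 10 (at 2 weeks -0.24 against -0.41), while the cytosolic diamond of decile 10 lies close to the line at 1 week (-0.49 against -0.51) and above it at 6 weeks (-0.02 against -0.31), and the cytosolic median of the whole set is above 0 at each week with quantile normalization.

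Quantile normalization gives every array the same distribution of signals and cyclic loess fits differences along brightness, and under both the sets had different signs from 2 weeks on. The cytosolic median was 0.11, 0.17 and 0.25 at 1, 2 and 6 weeks with quantile normalization, and -0.005, 0.05 and 0.16 with cyclic loess. The mitochondrial median was -0.24, -0.15 and -0.18 with quantile normalization and -0.26, -0.18 and -0.20 with cyclic loess. At 6 weeks the mitochondrial median was below the cytosolic one with quantile normalization, cyclic loess, normexp and no filter as well, with a difference of -0.21 with the 75th percentile and from -0.43 to -0.20 over the others. At 1 and 2 weeks the order of the sets depended on the scaling. The difference, mitochondrial minus cytosolic, was 0.04 and 0.02 with the 75th percentile and 0.02 and 0.005 with normexp. It was -0.35 and -0.33 with quantile normalization and -0.25 and -0.23 with cyclic loess. No test of the difference between the set medians was made.

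**Figure D3:**
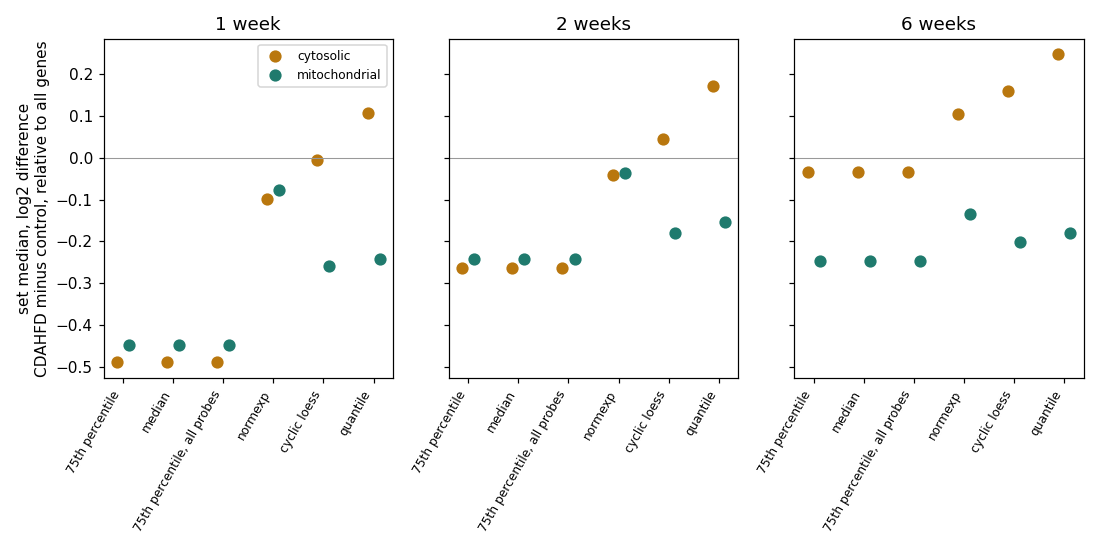
Median log2 difference, CDAHFD minus control relative to all genes (y axis), of the cytosolic and mitochondrial ribosomal protein genes at 1, 2 and 6 weeks (panels), under 6 ways of scaling or background correction (x axis), of which the 3 that set each array to a percentile or median give nearly the same values by construction. The mitochondrial points are below 0 throughout, and the cytosolic points cross 0, at 6 weeks from -0.04 with the 75th percentile to 0.25 with quantile normalization.

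At 1 week, 41 of 85 cytosolic and 34 of 78 mitochondrial genes fell, against 15.1% of all genes, and 1 cytosolic gene (Rps15a) and no mitochondrial gene rose, against 25.8% of all genes. At 2 weeks, 18 cytosolic and 24 mitochondrial genes fell, against 14.7% of all genes, and 5 and 2 rose, against 23.0%. At 6 weeks, 4 cytosolic and 27 mitochondrial genes fell, against 16.0% of all genes, and 9 and 2 rose, against 24.5%. In decile 10 of brightness, which holds 77 of the 85 cytosolic genes, 50.2%, 45.4% and 37.1% of all genes fell at 1, 2 and 6 weeks, so the cytosolic counts were not above those of genes of like brightness. Of the 78 mitochondrial genes 20 lie in that decile, 24 in decile 9 and 17 in decile 8. Of all genes in decile 9, 24.2%, 23.5% and 26.5% fell at 1, 2 and 6 weeks, and in decile 8 14.2%, 16.4% and 18.5%. The direction of the cytosolic calls depended on the scaling. At 1 week 64 fell and 0 rose with median centring, 73 fell and 0 rose with the percentile over all probes, and 32 fell and 0 rose with normexp, but 19 rose and 6 fell with cyclic loess. With quantile normalization 23 rose and 4 fell at 1 week, 30 rose and 6 fell at 2 weeks, and 32 rose and 5 fell at 6 weeks. More mitochondrial genes fell than rose under quantile normalization, with 25, 19 and 26 that fell and 1, 5 and 5 that rose at 1, 2 and 6 weeks. Of all genes called under it, 59.3%, 57.5% and 53.7% were higher at 1, 2 and 6 weeks. By subunit, averaged over weeks, 21 of 29 Mrps and 26 of 49 Mrpl genes fell, with medians of -0.40 and -0.27. In the average 25.6% of all genes fell, with 28%, 39.4% and 63% in deciles 8, 9 and 10 of brightness.

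**Figure D4:**
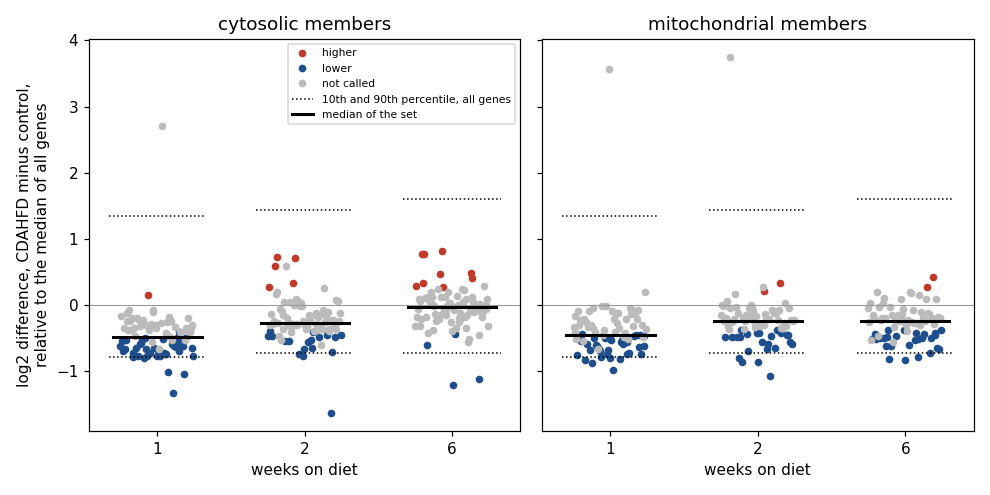
Log2 difference, CDAHFD minus control relative to all genes (y axis), of each cytosolic (left) and mitochondrial (right) ribosomal protein gene at 1, 2 and 6 weeks on diet (x axis), with arrays scaled to the 75th percentile; colour gives the call, the bar the set median, and dotted lines the limits of the lowest and highest decile of all genes tested. The mitochondrial medians are -0.45, -0.24 and -0.25, the cytosolic medians of -0.49, -0.27 and -0.04 are 0.11, 0.17 and 0.25 with quantile normalization, and the 3 points far above the rest (Rpsa, Mrpl10 and Mrpl44) each have 1 control array with a dim reading.

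To describe genes whose call does not hang on the scaling, members called the same way under all 6 settings were counted, a criterion chosen after the values were seen. In the average over weeks, 31 of 78 mitochondrial and 7 of 85 cytosolic genes fell under all 6, against 20.5% of all genes, and 0 mitochondrial and 2 cytosolic genes rose, against 15.1% of all genes. At 6 weeks 20 mitochondrial and 2 cytosolic genes fell under all 6, against 10.6% of all genes, and 0 and 3 rose, against 12.0%. At 2 weeks 13 and 4 fell, against 9.50% of all genes, and 0 and 3 rose, against 9.93%. At 1 week 18 and 4 fell, against 10.1% of all genes. The mitochondrial share thus lay above that of all genes at each week, and the cytosolic share below it. These shares of all genes were not matched for brightness. With the 75th percentile, 16 mitochondrial and 2 cytosolic genes fell at all 3 weeks, against 7.05% of all genes.

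Among the cytosolic small-subunit proteins, Rps21 fell furthest in the average over weeks. Its level was 0.48 and 0.645 in CDAHFD livers at 1 week, against 1.62 and 1.34 in controls. It was -1.002 and -0.96 in CDAHFD livers at 2 weeks, against 0.66 and 0.53 in controls, and -0.70 and -1.02 in CDAHFD livers at 6 weeks, against 0.20 and 0.24 in controls. Within each week both CDAHFD arrays lay below both controls, and on either diet the levels of 2 and 6 weeks lay below those of 1 week. The difference was -1.05 ± 0.14, -1.63 ± 0.14 and -1.12 ± 0.14 (SE) at 1, 2 and 6 weeks, the second a 3.1-fold reduction (limma adjusted p = 5.3e-04, 1.4e-05 and 1.3e-04), and stayed called under all 6 settings. Rps21 is read by 1 probe.

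Rps19, a small-subunit protein whose loss of function causes Diamond-Blackfan anaemia in humans, went the other way. Its level was 1.94 and 1.98 in CDAHFD livers at 1 week, against 1.96 and 1.865 in controls, so the diets overlapped. At 2 weeks it was 2.02 and 1.98 in CDAHFD livers, against 1.19 and 1.24 in controls, and at 6 weeks 2.48 and 2.13 in CDAHFD livers, against 1.54 and 1.44 in controls. The CDAHFD arrays lay above the controls at both later weeks, by 0.73 ± 0.12 and 0.78 ± 0.12 (limma adjusted p = 5.3e-04 and 3.6e-04), a 1.66-fold and a 1.71-fold difference that held under all 6 settings. Whether its diet difference varied by week missed the threshold (limma F test, adjusted p = 0.054).

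Rpl22l1, a paralog of the large-subunit protein Rpl22 that can take its place in the ribosome, was also higher on CDAHFD at the later weeks. Its level was 2.88 and 2.82 in CDAHFD livers at 1 week, against 2.86 and 2.82 in controls, which overlapped. It was 2.69 and 2.73 in CDAHFD livers at 2 weeks, against 1.97 and 2.16 in controls, and 2.85 and 2.81 in CDAHFD livers at 6 weeks, against 2.03 and 2.01 in controls. Levels on CDAHFD thus stayed near those of 1 week, while the controls of 2 and 6 weeks were lower, and the difference was 0.59 ± 0.10 at 2 weeks and 0.77 ± 0.10 at 6 weeks (limma adjusted p = 5.3e-04 and 1.0e-04). Rpl22 itself was not called at any week, at -0.18, -0.13 and 0.23, and in the average it rose with quantile normalization (0.40) and cyclic loess (0.31).

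Other paralogs of cytosolic proteins were also read. Rpl36al, the paralog of Rpl36a, was lower at 1 week (-0.78 ± 0.13), a call lost with quantile normalization, and rose at 2 and 6 weeks (0.72 ± 0.13 and 0.82 ± 0.13) under all 6 settings. Its level was 2.17 and 2.25 in CDAHFD livers at 1 week, against 3.025 and 2.69 in controls, and 1.71 and 1.76 in CDAHFD livers at 6 weeks, against 1.035 and 0.73 in controls. Rps27l, the p53-induced paralog of Rps27, was at -0.67 ± 0.12 at 1 week, 0.34 ± 0.12 at 2 weeks and 0.465 ± 0.12 at 6 weeks, all called with the 75th percentile, though the call of 1 week was lost with quantile normalization and cyclic loess, that of 2 weeks was kept under 3 of the 5 other settings and that of 6 weeks under 4. Rps27 was not called at any week, at -0.30, -0.24 and 0.03. Rpl7l1, a nucleolar relative of Rpl7, fell at 6 weeks (-0.61 ± 0.17) while Rpl7 itself fell at 1 and 2 weeks (-0.57 and -0.54). Rpl39, whose paralog Rpl39l is testis-enriched and did not pass here, rose at 6 weeks by 0.34, and Rps4l, annotated as a transcribed pseudogene beside Rps4x, fell at 6 weeks (-1.21 ± 0.37), a call lost without CDAHFD replicate 1 (limma adjusted p = 0.17) or control replicate 2 (0.18) of that week.

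The plot of levels by array shows Rps21, Rpl4, Rps19 and Rpl22l1 beside 4 mitochondrial genes. Rpl4, a large-subunit protein that lines the exit tunnel, was 1.32 and 1.525 in CDAHFD livers at 1 week, against 2.195 and 1.95 in controls. At 6 weeks it was 0.85 and 0.78 in CDAHFD livers, against 1.32 and 1.105 in controls. It fell at all 3 weeks, with differences of -0.77, -0.56 and -0.435 (SE 0.12 each), though the call of 6 weeks was lost with cyclic loess (limma adjusted p = 0.070), without CDAHFD replicate 2 (0.083) and without control replicate 1 (0.18) of 6 weeks. Rpl7a (-1.32 ± 0.29) and Rps3 (-1.005 ± 0.14), a protein of the mRNA entry channel that also acts in DNA repair, fell at 1 week and were not called at 2 and 6 weeks, where Rps3 was at -0.29 and 0.05. Rpl17 (-0.76 ± 0.11), Rps20 (-0.74 ± 0.17) and Rpl11 (-0.71 ± 0.17), which binds Mdm2 when ribosome assembly stalls, fell at 2 weeks, of which Rpl17 kept its call under all 6 settings. Of the 6 other probes of Rpl17, the 2 dimmest had the opposite sign at 2 weeks (0.34 and 0.18), as had 1 of the 2 other probes of Rpl11 (0.57). Rpl3, at the peptidyl transferase centre, rose at 2 and 6 weeks (0.275 and 0.29), each kept under 2 of the 5 other settings. The ubiquitin fusion Rps27a fell at 1 and 2 weeks (-0.46 and -0.49) and was at -0.18 at 6 weeks. Its call of 1 week was kept under 2 of the 5 other settings and was opposite, higher in CDAHFD livers, under 2. Rpl23 (-0.73), Rpl26 (-0.51), Rpl32 (-0.79) and Rpl36 (-0.78) fell at 1 week, calls kept under 2 or 3 of the 5 other settings, and none of these 4 was called at 6 weeks, where Rpl23 was at -0.07, Rpl26 at -0.003, Rpl32 at -0.21 and Rpl36 at -0.39. Of the 4, Rpl36 fell at 2 weeks too (-0.67). Rps6, the subunit protein that S6 kinases phosphorylate downstream of TOR, was not called at single weeks (-0.41, -0.36 and -0.06), and neither was Rpl5, which carries the 5S rRNA into the large subunit (-0.28, 0.06 and -0.07).

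**Figure D5:**
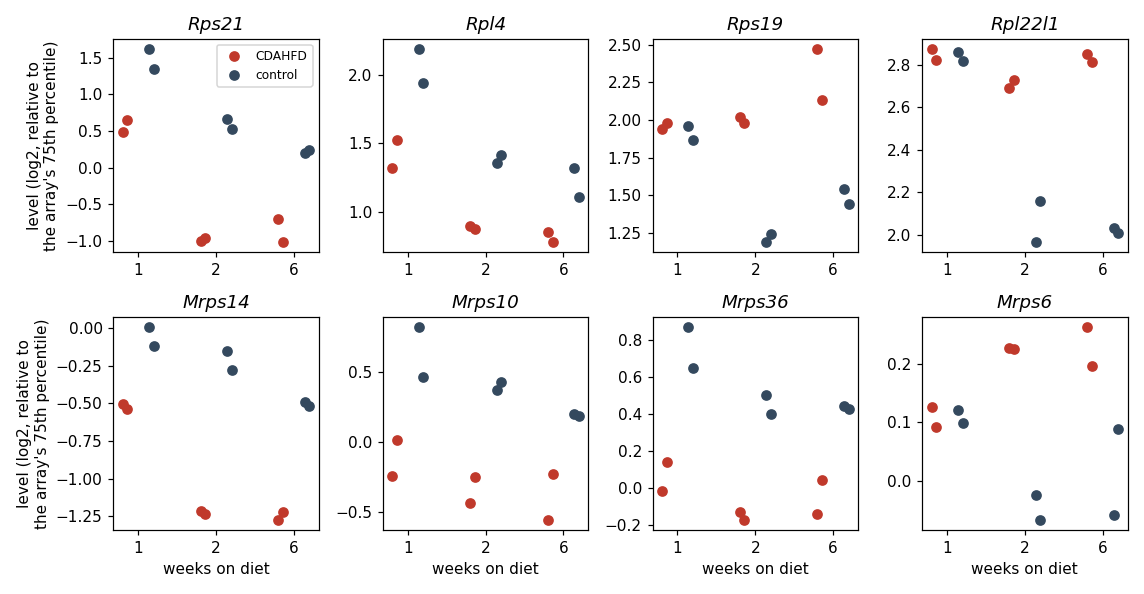
Level of 4 cytosolic (top) and 4 mitochondrial (bottom) ribosomal protein genes on each array (y axis, log2 relative to the array's 75th percentile, each gene on its own scale) by week on diet (x axis), CDAHFD left of control, with 2 arrays per group. Rps21, Rpl4, Mrps14, Mrps10 and Mrps36 lie lower in CDAHFD livers at all 3 weeks, and Rps19 and Rpl22l1 lie higher at 2 and 6 weeks. Mrps6 lies higher at 2 and 6 weeks, by at most 0.21 once the median difference of all genes is subtracted.

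Members that are often used to normalize expression did not hold one direction across weeks or scalings. Rplp0, the stalk base, was 4.77 and 4.94 in CDAHFD livers at 1 week, against 5.49 and 5.265 in controls, and it fell, with a difference of -0.65 ± 0.12 (limma adjusted p = 0.0068). At 2 and 6 weeks it was at -0.01 and 0.03 and not called, and in the average, not called with the 75th percentile, it rose with quantile normalization (0.30) and cyclic loess (0.19). Rplp1 and Rplp2, its acidic partners, fell in the average (-0.27 and -0.32) and rose with quantile normalization (0.225 and 0.28). Rps14 (-0.34) and Rpl10 (-0.47) likewise fell in the average and rose with quantile normalization (0.31 and 0.23). Rpl13a, another common reference gene, fell at 1 week (-0.79), but its other 2 probes gave 0.41 and 0.42 in the average, against -0.58 for the one used.

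The cytosolic difference at 1 week stood beside high levels in the 1-week controls. Within the control diet, 27 of 85 cytosolic and 5 of 78 mitochondrial genes changed between weeks (limma F test), against 11.5% of all genes, and all 27 were lower at 2 and 6 weeks than at 1 week. Within CDAHFD, 3 cytosolic genes (Rpl17, Rpl4 and Rps21) and 1 mitochondrial gene (Mrps14) changed, against 3.08% of all genes, and all 4 were lower at the later weeks. The cytosolic median in controls was -0.28 at 2 weeks and -0.36 at 6 weeks relative to 1 week, with such changes given relative to the median change of all genes. The 27 were 10 with quantile normalization and 13 with cyclic loess, also all lower at later weeks, and, with the 75th percentile, 6 without control replicate 1 of 1 week, 14 without control replicate 1 of 6 weeks and 11 without control replicate 2 of 6 weeks. Rpl36al (-1.71 and -1.99 at 2 and 6 weeks relative to 1 week), Rps3 (-0.95 and -1.23) and Rps24 (-0.82 and -1.08) were among the 27, Rps24 having been picked after its values were seen. Weeks differ in the animals' age as well, and the arrays of 6 weeks were on a slide of their own, so week, age and slide cannot be told apart there. The 1-week and 2-week arrays shared a slide.

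Set against the 4 controls of 2 and 6 weeks, CDAHFD livers of 1 week had 0 cytosolic genes that fell and 6 that rose, against 12.2% and 23.0% of all genes, with a median of -0.07. By an unadjusted p under 0.05 in limma, 10 of 85 cytosolic genes differed, against 6177 of the 13901 genes tested. Mitochondrial genes fell in 23 of 78 cases and rose in 2, with a median of -0.24. Deciles 8, 9 and 10 of brightness hold 17, 24 and 20 of the 78. Of all genes in these deciles, 15.5%, 23.3% and 36.3% fell. The mitochondrial genes in them had medians of -0.28, -0.18 and -0.26, against -0.09, -0.17 and -0.32 for all genes of the decile. This comparison shares its CDAHFD arrays with the comparison at 1 week, so they are not independent. The 4 controls came from older animals, of 8 and 12 weeks against 7, and those of 6 weeks lay on the other slide. Age and slide thus do not drop out of this comparison. Rps21 was at 0.09 ± 0.12 and Rps3 at 0.13 in it, Rps19 (0.55 ± 0.10) and Rpl36al (1.125 ± 0.12) rose, and Mrpl49 fell (-0.79 ± 0.12), beside its value against the controls of its own week (-0.81 ± 0.14).

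The diet difference itself changed between weeks in 3 of 85 cytosolic and 0 of 78 mitochondrial genes, near and below the 2.33% of all genes (limma F test). The 3 cytosolic genes were Rpl36al (limma adjusted p = 0.0093), Rps27l (0.0235) and Rpl22l1 (0.030), each higher relative to controls at 2 and 6 weeks than at 1 week. The cytosolic count ran from 0 to 6 when single arrays were left out. By an unadjusted p under 0.05 it changed in 23 of 85 cytosolic and 8 of 78 mitochondrial genes, against 2707 of the 13901 genes tested. Among mitochondrial genes Mrps26 had the smallest value (limma adjusted p = 0.10).

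Among the mitochondrial small-subunit proteins, Mrps14, which lies in the head of the subunit, had the lowest average difference. Its level was -0.50 and -0.54 in CDAHFD livers at 1 week, against 0.01 and -0.12 in controls. It was -1.215 and -1.24 in CDAHFD livers at 2 weeks, against -0.15 and -0.28 in controls, and -1.28 and -1.22 in CDAHFD livers at 6 weeks, against -0.49 and -0.515 in controls. The diets did not overlap within a week, and the difference was -0.59 ± 0.10, -1.07 ± 0.10 and -0.78 ± 0.10 (limma adjusted p = 0.0043, 3.3e-05 and 2.0e-04), a 2.1-fold reduction at 2 weeks. Its 2 dimmer probes gave -0.13 and -0.38 in the average, where the brightest gave -0.82, and with the mean of probes the call of 2 weeks was lost (limma adjusted p = 0.079). At 1 week a dimmer probe had the opposite sign.

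Mrps10, also of the small-subunit head, was -0.24 and 0.01 in CDAHFD livers at 1 week, against 0.82 and 0.465 in controls. It was -0.43 and -0.25 in CDAHFD livers at 2 weeks, against 0.37 and 0.43 in controls, and -0.56 and -0.23 in CDAHFD livers at 6 weeks, against 0.20 and 0.19 in controls. All CDAHFD arrays lay below all control arrays, with differences of -0.88, -0.80 and -0.62 (SE 0.15 each). Mrps36, since found to be a subunit of the 2-oxoglutarate dehydrogenase complex and not of the ribosome, fell at all 3 weeks (-0.82, -0.66 and -0.52), but its second probe gave -0.40, 0.105 and 0.06 at 1, 2 and 6 weeks. Mrps35 (-0.82, -0.48 and -0.505), Mrps31 (-0.56, -0.645 and -0.50) and Mrps7 (-0.75, -0.49 and -0.52), another protein of the head, fell at all 3 weeks too; Mrps31 and Mrps7 were picked after their values were seen, as was Mrpl22. Mrps26 was not called at 1 and 2 weeks (-0.12 and -0.34) and fell at 6 weeks (-0.72 ± 0.12), where its second probe had the opposite sign.

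Among the large-subunit proteins, Mrpl49 fell at each week under all 6 settings. Its level was -0.97 and -0.83 in CDAHFD livers at 1 week, against -0.13 and -0.31 in controls, -0.90 and -1.06 in CDAHFD livers at 2 weeks, against -0.12 and -0.22 in controls, and -1.15 and -0.80 in CDAHFD livers at 6 weeks, against -0.14 and -0.22 in controls. All 6 CDAHFD arrays lay below all 6 control arrays, and the average difference was -0.84 ± 0.08, a 1.79-fold reduction (limma adjusted p = 1.35e-05), with its second probe at -0.41. Mrpl22, which lines the exit tunnel, fell at all 3 weeks (-0.56, -0.59 and -0.43, SE 0.10 each), and its second probe gave -0.42 in the average against -0.53. Mrpl28 fell at 1 week (-0.98 ± 0.19) and was not called later (-0.28 and -0.22). Mrpl39, a protein related to threonyl-tRNA synthetases, fell at all 3 weeks (-0.50, -0.85 and -0.81), but its dimmer probe gave 0.20 in the average, and with the mean of its probes it was not called in the average (limma adjusted p = 0.069).

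Of the few mitochondrial genes that rose, 0 kept the call under all 6 settings. Mrpl17 rose at 2 and 6 weeks (0.34 ± 0.09 and 0.28 ± 0.09), Mrps6 at 2 weeks (0.21 ± 0.10) and Mrpl54 at 6 weeks (0.43 ± 0.12). Mrpl12, which also binds the mitochondrial RNA polymerase, fell at 1 week (-0.50) and was at -0.02 and -0.25 later. Mrpl58, a peptidyl-tRNA hydrolase built into the large subunit, was not called at any week (-0.41, -0.19 and -0.03), and neither were Mrpl3 (-0.41, -0.005 and -0.26), Mrpl41 (-0.22, -0.085 and -0.30), Mrps12 (-0.33, 0.16 and 0.03) or Mrps15 (-0.21, -0.25 and -0.03). Mrps27 fell at 1 and 6 weeks (-0.605 and -0.62) and Mrps30, a protein now placed in the large subunit, at 2 and 6 weeks (-0.48 each). Of the 3 Mrps18 paralogs, which sit at separate places in the ribosome, Mrps18c fell at 1 and 2 weeks (-0.53 and -0.43) and Mrps18a and Mrps18b were not called at any week.

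Readings of 3 members were dim on 1 control array. Rpsa, the laminin-receptor protein of the small subunit, was at -1.73 on control replicate 1 at 1 week and 4.27 on replicate 2, Mrpl10 was at -7.855 and -0.23 on those 2 arrays, and Mrpl44 was at -0.59 and -8.68 on the 2 control arrays of 2 weeks. Rpsa and Mrpl10 lie in a corner of control replicate 1 at 1 week that was dim relative to all other arrays (303 of its spots by 8-fold or more), as do the probes of Rpl27a, Rpl36a, Mrps27 and Mrps34. With that corner masked, 41 cytosolic and 35 mitochondrial genes fell at 1 week, and without control replicate 2 of 2 weeks Mrpl44 fell in the average (-0.45, limma adjusted p = 0.0014). Several probes served 78 of the 166 members, and of 43 members called in the average that had further probes, 16 had one of opposite sign. Among calls named above, another probe also had the opposite sign for Rps15a, Rpl23, Rpl26 and Mrps14 at 1 week, those of Rpl23 and Rpl26 in the dim corner, and for Rpl7 at 2 weeks. Near-identical processed copies of cytosolic ribosomal protein genes are common in the mouse genome, so a probe may also read transcripts of copies, and Rps23rg1, Rpl32l and Rpl37rt, named as relatives of Rps23, Rpl32 and Rpl37, are uncertain for that reason.

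In bulk liver, fewer cells of a type and less RNA per cell cannot be told apart. The hepatocyte markers Alb, Ttr, Apoa1, Hnf4a and F2 fell in the average (5 of 5), and their summed level was 6.71 to 7.01 in CDAHFD livers at 1 week, against 7.61 to 7.90 in controls, and 6.63 to 6.79 in CDAHFD livers at 6 weeks, against 6.94 to 6.96 in controls. Their sum was highest in the 1-week controls, as the cytosolic median was, and with quantile normalization 2 fell and 1 rose. Of the macrophage markers 5 of 6 rose, with a summed level of 4.48 to 4.72 in CDAHFD livers at 6 weeks, against 2.98 to 3.15 in controls, and the leukocyte marker Ptprc was at -2.87 to -2.44 in CDAHFD livers, against -5.53 to -5.06 in controls. The stellate cell markers were at 4.53 to 4.64 in CDAHFD livers at 6 weeks, against 3.04 to 3.08 in controls, and the cell cycle markers at -1.75 to -0.59 in CDAHFD livers at 6 weeks, against -4.10 to -4.06 in controls. The erythroid markers Hba-a1, Hbb-b1 and Alas2 fell (3 of 3) at each week and in the average under all 6 settings, with a summed level of 2.22 to 2.34 in CDAHFD livers at 1 week, against 3.69 to 4.04 in controls, and 2.29 to 2.76 in CDAHFD livers at 6 weeks, against 3.75 to 3.82 in controls. In the average 2 of 2 B cell and 2 of 2 biliary markers rose, 1 T cell marker rose and 1 fell, and 0 of 2 endothelial markers were called, though with normexp 1 B cell and 0 biliary markers rose. The part of cell composition in the ribosomal protein differences was not tested.

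Ribosomal proteins that carry other names were counted apart. Of 8 such genes 7 fell in the average and 0 rose, against 25.6% and 35.6% of all genes, with a median of -0.32, but with quantile normalization 1 fell and 3 rose. Gadd45gip1, a large-subunit protein of the mitochondrial ribosome, fell (-0.76 ± 0.12) under all 6 settings. Aurkaip1 (-0.47 ± 0.08), of the mitochondrial small subunit, kept its call under 3 of the 5 other settings, and so did Fau (-0.515 ± 0.08), the cytosolic ubiquitin-like fusion, which rose under 1 of them.

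Other genes of mitochondrial gene expression had medians below 0 in the average, where 25.6% of all genes fell and 35.6% rose. Of 14 mitochondrial translation factors 7 fell and 0 rose in the average (median -0.23), of 18 genes of mitoribosome assembly and mitochondrial transcription 9 fell and 2 rose (median -0.35), and of 17 mitochondrial tRNA synthetases 5 fell and 2 rose (median -0.19), a share that fell near that of all genes. Tufm, the mitochondrial elongation factor EF-Tu, Gfm2, which recycles the ribosome, and Slirp, which stabilises mitochondrial mRNAs, fell (-0.46 ± 0.05, -0.50 ± 0.07 and -0.50 ± 0.07). Nsun4, an rRNA methyltransferase (-0.55 ± 0.065), Rbfa, a small-subunit assembly factor (-0.61 ± 0.08), and Polrmt, the mitochondrial RNA polymerase (-0.42 ± 0.06), fell, as did the synthetases Fars2 (-0.59 ± 0.07) and Nars2 (-1.42 ± 0.235), while Tars2 rose (0.32 ± 0.09). Each of these except Tars2 kept its call under all 6 settings.

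Of 48 ribosome biogenesis genes 20 rose and 7 fell in the average, against 35.6% and 25.6% of all genes, with a median of 0.13, though 8 rose and 11 fell with the percentile over all probes, where the median of all genes before subtraction was -0.17, beside 0.08 with the 75th percentile. Pes1, of the complex that matures the large subunit (0.88 ± 0.13), Eif6, which keeps the subunits apart (0.755 ± 0.08), and Rrs1, which brings in the 5S particle (0.41 ± 0.06), rose under all 6 settings. Of 25 cytosolic translation factors 4 rose and 4 fell, both below the shares of all genes (median -0.12, and 0.05 with quantile normalization), among them Eif3h (0.29 ± 0.055), Eif5 (-0.455 ± 0.065) and the abundant Eef1a1 (-0.52 ± 0.09). Of 15 genes of TOR signalling and TOP mRNA control 5 rose and 3 fell, near or below those shares (median -0.14, and 0.01 with normexp), among them the translation repressors Eif4ebp2 (-0.72 ± 0.07) and Eif4ebp1 (0.47 ± 0.08) and the TOR inhibitor Sesn2 (0.55 ± 0.08), whose calls held under all 6 settings.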

How the data were processed

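Total RNA (150 ng per sample) from 12 mouse liver samples was labelled with Cy3 and hybridised to one-colour Agilent arrays, 1 array per sample and 2 per group. The deposited files hold spot intensity values; per the file headers, the processed signal had local background removed and a spatial trend taken out, array by array, with Agilent Feature Extraction 11.5.1.1, while the submitters' processing notes name version 10.7, and no normalization between arrays was applied.

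From these, log2 processed signals were taken without control and outlier spots, spots of a probe were averaged, and arrays were set to a common 75th percentile, computed over the 20172 probes that the scanner software marked as above background on every array. Accessions were matched to RefSeq symbols, which named 28664 of 55681 probes. A gene was read by its brightest probe and tested if it carried that mark on 2 of 2 arrays in some group. The mark was on 45.4% to 49.7% of the probes of a CDAHFD array and on 40.4% to 44.4% of those of a control array. At 1 week it was on 49.4% and 49.7% in CDAHFD livers, against 40.7% and 44.4% in controls. Whether this split by diet bears on the scaling or on the trend with brightness was not tested. Of the gene spots, 0 were saturated. With 2 arrays per group, their number limits the precision. A linear model of 6 group means (6 residual degrees of freedom) was fitted to 13901 genes in R 4.3.3 with limma 3.58.1 (lmFit, eBayes with trend and robust), with Benjamini-Hochberg adjustment over all genes, and tested on simulated data. Named are set anchors, paralog pairs, the 4 called members furthest from 0 per set, comparison and direction, the 3 with the smallest p between weeks and 3 per pathway list; others were chosen after their values were seen. Alternatives covered scaling, background correction (normexp, offset 50), filters, probe choice, slide, array weights, dim blocks, the replicate number and each array left out. The members and lists were chosen with earlier results of these data known.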

Additional observations from a re-analysis of the deposited data

Results flagged for a closer look

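The diet difference varied by week in 3 of 85 cytosolic ribosomal protein genes, a share near the 2.33% of all genes tested, by an F test of that variation itself in limma. Across weeks within CDAHFD none of the 3 was called (limma F test, adjusted p = 0.16 for Rpl36al, 0.96 for Rps27l and 0.67 for Rpl22l1). Rpl36al had an adjusted p of 0.0093 in limma, with a difference 1.44 higher at 2 weeks and 1.53 higher at 6 weeks than at 1 week. Rps27l had an adjusted p of 0.0235 in limma, with a difference 0.955 and 1.07 higher at 2 and 6 weeks. Rpl22l1 had an adjusted p of 0.0302 in limma, with a difference 0.65 and 0.82 higher at 2 and 6 weeks. These changes are relative to the median change of all genes between the same weeks. The count of such cytosolic genes was 0 without CDAHFD replicate 1 or 2 of 1 week and 6 without CDAHFD replicate 1 of 6 weeks.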

How the results depend on the processing

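Counts of called cytosolic and mitochondrial ribosomal protein genes moved with the scaling, with a minimum fold and with the choice of controls. Of single named results, 2062 of 2311 kept direction and side of the threshold. At 1, 2 and 6 weeks and in the average, the median of all genes was 0.13, 0.06, 0.04 and 0.08 with the 75th percentile, -0.05, -0.06, -0.09 and -0.06 with median centring, -0.16, -0.16, -0.20 and -0.17 with the percentile over all probes, -0.20, -0.15, -0.08 and -0.14 with normexp, and -0.13, -0.15, -0.14 and -0.15 without a filter. The share of all calls that were higher was 63%, 61%, 60.5% and 58.2% with the 75th percentile, 45.3%, 49%, 48.2% and 44.7% with median centring, 36.1%, 39.3%, 38.1% and 36.3% with all probes, 33.1%, 48.3%, 53.4% and 35.3% with normexp, and 43.6% at 1 week and 41.7% in the average without a filter. With quantile normalization the median of all genes was 0.06, 0.004, -0.03 and 0.02, and 59.3%, 57.5%, 53.7% and 52.6% of calls were higher. With cyclic loess the median of all genes was 0.11, 0.08, 0.06 and 0.09, and 65.2%, 66.9%, 64.2% and 61.1% of calls were higher.

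Requiring 1.5-fold left 16, 9, 5 and 3 cytosolic and 11, 7, 6 and 5 mitochondrial genes at 1, 2 and 6 weeks and in the average. Median centring called 64 and 52 at 1 week, and 1 cytosolic gene across weeks in CDAHFD. The percentile over all probes called 73, 54 and 27 cytosolic and 63, 45 and 54 mitochondrial genes at 1, 2 and 6 weeks. Quantile normalization called 27, 36 and 37 cytosolic genes, with medians of 0.1078, 0.1726, 0.2477 and, averaged, 0.1826, beside mitochondrial medians of -0.2422, -0.1537, -0.1801 and -0.1766, and 10 cytosolic and 2 mitochondrial genes across weeks in control. Cyclic loess called 25 cytosolic genes at 1 week and 43 at 6 weeks, with medians of -0.0049, 0.0465, 0.1586 and 0.0715, beside -0.2577, -0.1812, -0.2008 and -0.2034, and 13 cytosolic genes across weeks in control. Normexp called 15 cytosolic genes at 2 weeks and 8 at 6 weeks, with medians of -0.0986, -0.0404, 0.1043 and 0, beside -0.0762, -0.0357, -0.1345 and -0.1047, and 17 and 0 across weeks in control. Without a filter the medians were -0.2301, -0.0614, 0.1274 and -0.0388, beside -0.1881, -0.0328, -0.0727 and -0.0981, with 0 mitochondrial genes across weeks in control. Against the controls of 2 and 6 weeks, 6 cytosolic genes were called at 1 week, with medians of -0.0665 and -0.2383. The filter on all arrays gave mitochondrial medians of -0.3852, -0.1932, -0.1941 and -0.2652 and 5 cytosolic genes whose diet difference varied by week, as array weights and masking the dim blocks did (5 each). With only the arrays of 6 weeks, 4 and 19 were called. The mean of probes gave a mitochondrial average of -0.285, and 3 and 0 mitochondrial genes across weeks in control and in CDAHFD. Without a variance trend, 1 cytosolic gene had a diet difference that varied by week, 17 cytosolic and 0 mitochondrial genes were called across weeks in control, and 1 cytosolic gene in CDAHFD. The cause of these shifts was not tested.

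Leaving out single arrays gave 18 to 45, 8 to 28, 6 to 14 and 39 to 53 cytosolic and 15 to 41, 13 to 28, 17 to 31 and 43 to 51 mitochondrial genes at 1, 2 and 6 weeks and in the average. Cytosolic medians ran from -0.5771 to -0.3792, -0.3687 to -0.1545, -0.1294 to -0.0026 and -0.3032 to -0.2254, and mitochondrial ones from -0.4944 to -0.3966, -0.2811 to -0.2421, -0.2896 to -0.2467 and -0.3417 to -0.2982. The diet difference varied by week in 0 to 6 and 0 to 1 genes, and levels varied across weeks in 6 to 30 and 0 to 7 in control and 1 to 4 and 0 to 3 in CDAHFD. At 1 week, 18 and 15 were called without CDAHFD replicate 1, and 20 and 19 without control replicate 1. At 2 weeks, 8 and 13 were called without CDAHFD replicate 2, 12 and 16 without CDAHFD replicate 1, and 9 cytosolic genes without control replicate 1. At 6 weeks, 17 and 19 mitochondrial genes were called without control replicate 1 or 2, and 6 cytosolic genes without control replicate 2. Replicate numbers did not pair the arrays (same-number correlations of -0.143 to 0.22), and with the replicate block 42 and 32, 25 and 24, 15 and 29, and 49 and 49 were called, and 2 mitochondrial genes across weeks in control.

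Averages of named genes that changed sign with quantile normalization and cyclic loess were Rplp0 (0.302 and 0.193), Rplp1 (0.225 and 0.128), Rplp2 (0.278 and 0.121), Rpl10 (0.226 and 0.017), Rpl23 (0.07 and -0.025), Rpl26 (0.081 and 0, and 0.098 with the mean of probes), Rps6 (0.124 and 0.031), Rps14 (0.308 and 0.114), Rps27 (0.288 and 0.207), Rps27a (0.161 and 0.039), Rps4x (0.217 and 0.137) and Mrpl12 (0.063 and -0.014), and with quantile normalization Rpl7 (-0.012), where values below 0 are relative to all genes and their unshifted difference was above 0. With the percentile over all probes the unshifted sign turned for Rps15a (0.146 at 1 week, 0.167 averaged), Mrpl54 (0.126), Mrps6 (0.082), Rpl3 (0.127), Mrps12 (-0.053) and Rpl22 (-0.03). Rpl13a was at 0.082 with the mean of probes, Mrpl10 at -0.26 with the filter on all arrays and Mrpl44 at -0.448 without control replicate 2 and 2.261 without control replicate 1 of 2 weeks. Against the controls of 2 and 6 weeks, Rps21 (0.091), Rps3 (0.134), Rps27l (0.429) and Rpl36al (1.125) turned at 1 week.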
